A study of Rattus norvegicus with 6 samples.

Results

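The 9 transcription factors described here are the ETS family members Erg, Fli1, Ets1 and Ets2, the SOX factors Sox7, Sox17 and Sox18, the basic helix-loop-helix factor Tal1 and the zinc finger factor Gata2. They were taken by gene symbol, and each of the 9 had 1 probeset among the 15037 genes named on the array. They were measured in endothelial cells of dermal blood vessels from the abdominal skin of Sprague-Dawley rats, 3 with an IL-33 knock-out (animals 28, 27 and 52) and 3 wildtype (34, 45 and 37). Each genotype held 2 females and 1 male (52 and 37), and each array came from 1 animal. The skin of both genotypes was digested with collagenase I and DNase I. Magnetic beads then removed leukocytes by CD45 and lymphatic cells by Lyve-1, and cells bearing CD31, an endothelial surface protein, were kept. No source used here gives the age of the animals, the design of the deleted allele or whether controls were littermates.

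ETS factors bind DNA at sites with a GGAA core, which are present in nearly every promoter or enhancer known to be active in endothelium. ERG and the closely related FLI1 keep endothelial cells in their identity and hold their junctions together, ETS1 is linked to growing vessels, and ETS2 is a target of MAP kinase signalling found in many cell types. The SOXF factors SOX7, SOX17 and SOX18 overlap in function in vessel development, SOX17 being tied most to arteries and SOX18 to the onset of lymphatic fate. TAL1 and GATA2 work together in blood stem cells and in endothelium, often in 1 complex with LMO2 and LDB1.

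Il33, the check of the labels, was 8.07 to 9.82 in the knockout and 13.86 to 16.60 in the wildtype arrays (limma adjusted p = 0.0439). Values are log2 expression, on which an increase of 1 is a doubling. The blood endothelial markers were high on all arrays: 13 of 15 were in the table, and their median was 14.63 to 15.08 in the knockout and 14.30 to 14.80 in the wildtype. Plvap and Cdh5, the leading members with Eng (18.32 to 19.00), reached 19.67 to 19.90 and 19.62 to 19.71, within 0.5 of the highest value of an array (19.70 to 19.93). Other cells were represented unequally. The keratinocyte median (6 of 13 markers in the table) was 8.72 to 11.61 in the knockout, and 15.18, 11.83 and 8.40 in wildtype 34, 45 and 37. The lymphatic median (6 of 8) was 7.12 to 8.56 in the knockout and 5.24 to 8.29 in the wildtype, lowest in wildtype 37. The mean signal of the control transcripts added during preparation was 10.12 to 10.42 on arrays 28, 34 and 45 and 8.82 to 9.33 on arrays 27, 52 and 37. In sorted bulk RNA, fewer cells of a type and less RNA per cell cannot be told apart.

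All 9 factors lay above the 23 background probesets on each array, whose highest value was 5.36 to 5.87. Probesets differ in how strongly they bind, so the order of the factors by level describes probeset signal and not the number of transcripts. Ets1 was the highest of the 9 on every array, at 15.26 to 16.34, which is the 98.6th to 98.9th percentile of all named genes. Fli1 was the next on every array, at 12.75 to 14.81 (96.6th to 97.9th percentile). Ets2 (12.16 to 14.36) and Erg (11.84 to 14.20) followed and could not be separated: Ets2 was higher on 4 of 6 arrays, and the mean difference of 0.063 was well below its SD of 0.71. The 4 ETS factors were thus the highest of the set by mean, and none came closer than 3.59 to the maximum of its array.

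Among the SOXF factors Sox17 had the highest signal, at 10.90 to 12.99 (93.1st to 96.7th percentile). It was below Erg on 5 of 6 arrays and above Sox7 on 6 of 6. Sox7 (9.83 to 11.59) and Sox18 (9.80 to 12.03) changed places between arrays, with Sox7 higher on 4 of 6 and a mean difference of 0.22 against an SD of 1.03. Tal1 (7.33 to 9.11) and Gata2 (7.10 to 9.17) were the lowest on every array, and each was above the other on 3 of 6. Their probesets reached the 73.8th to 85.8th and the 72.1st to 86.1st percentile. Tal1 lay below the 95th percentile of the 1153 probesets named as negative controls (8.35 to 9.41) on 6 of 6 arrays and Gata2 on 4 of 6, which none of the other 7 factors did. The plots of values and of ranks by array show that the places of Ets1 and Fli1 were fixed. The exchanges were between neighbours except in knockout 28, where Sox17 (12.99) lay above both Erg (12.94) and Ets2 (12.91).

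**Figure D1:**
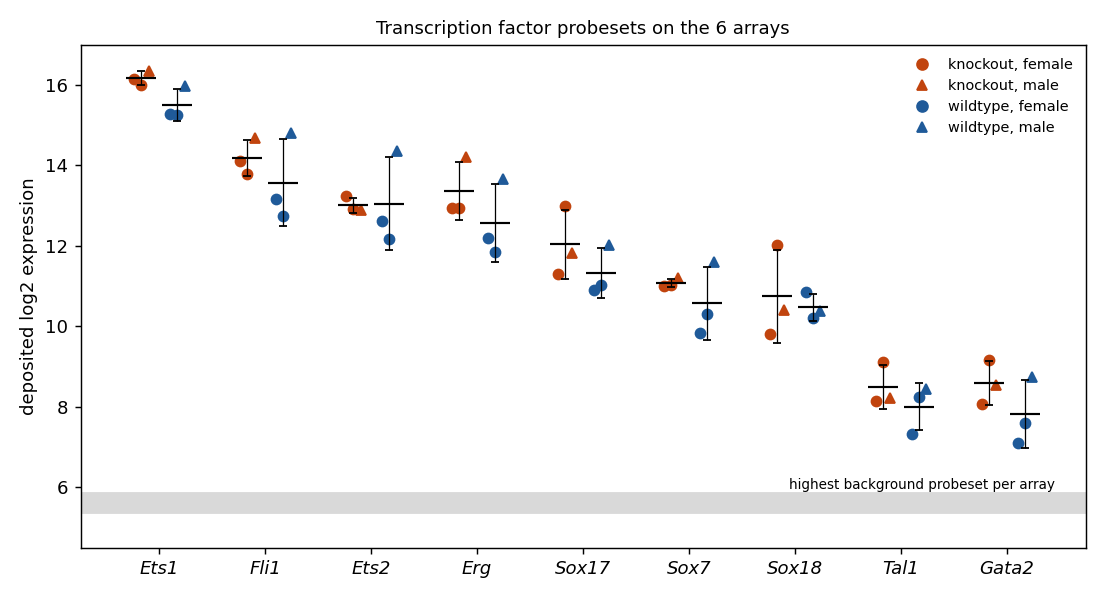
Deposited log2 expression (y axis) of the 9 factors (x axis, ordered by mean) on the 6 arrays, with knockout in red, wildtype in blue, females as circles and males as triangles; horizontal lines and bars are the mean and SD of each genotype (n = 3), and the grey band is the range over arrays of the highest background probeset (5.36 to 5.87). In most factors the 2 wildtype females (34 and 45) are the lowest points and the wildtype male (37) lies with the knockout arrays or above them.

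**Figure D2:**
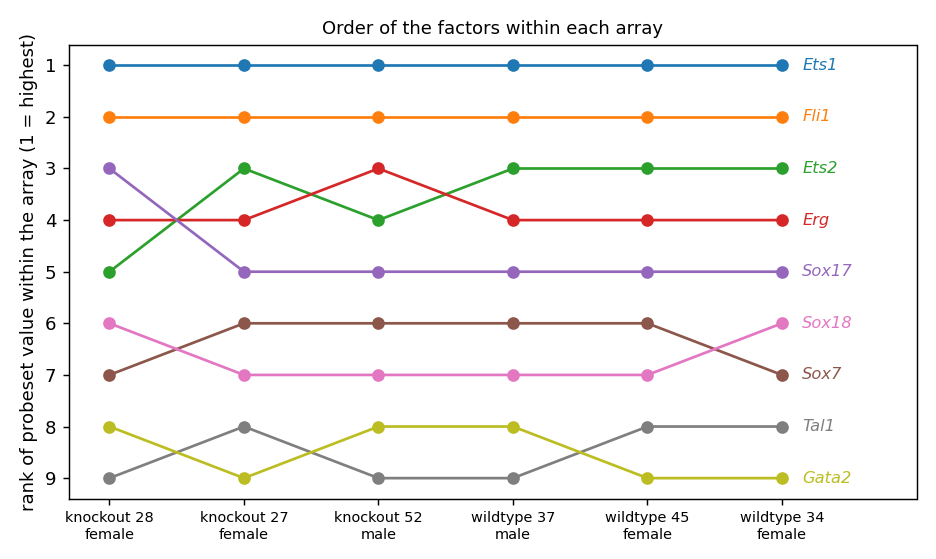
Rank of each factor among the 9 within each array (y axis, 1 is the highest probeset value; x axis, animals), with a line per factor. Ets1 and Fli1 hold places 1 and 2 on all 6 arrays, Sox17 is at rank 3 in knockout 28 and at rank 5 elsewhere, and Tal1 and Gata2 share the lowest places.

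RefSeq upstream sequences were available for 4 of the 9 factors (Erg, Ets2, Tal1 and Gata2; GRCr8, the 250 bases before the annotated start). Those of Erg, Tal1 and Gata2 are shown because these factors are known to act on one another's genes and because the 3 windows hold different sets of their core motifs. Capitals mark 4 motifs on either strand, so that a site on the other strand appears as its reverse complement. They are the ETS core GGAA, the SOX motif ATTGTT, the motif AGATAA of GATA proteins, and the E-box CAGATG that TAL1 complexes prefer.
Erg, chr11:48251567-48251816, minus strand: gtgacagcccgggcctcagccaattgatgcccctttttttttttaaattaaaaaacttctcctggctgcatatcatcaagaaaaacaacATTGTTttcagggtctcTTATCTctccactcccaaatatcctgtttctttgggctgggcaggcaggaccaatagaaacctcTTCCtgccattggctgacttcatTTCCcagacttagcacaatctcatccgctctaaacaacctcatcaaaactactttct
Tal1, chr5:133824214-133824463, plus strand: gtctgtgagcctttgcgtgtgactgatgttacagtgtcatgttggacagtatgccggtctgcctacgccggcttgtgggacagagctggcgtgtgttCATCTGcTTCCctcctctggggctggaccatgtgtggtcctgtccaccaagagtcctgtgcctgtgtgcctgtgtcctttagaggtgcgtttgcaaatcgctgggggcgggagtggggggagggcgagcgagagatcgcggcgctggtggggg
Gata2, chr4:122216031-122216280, plus strand: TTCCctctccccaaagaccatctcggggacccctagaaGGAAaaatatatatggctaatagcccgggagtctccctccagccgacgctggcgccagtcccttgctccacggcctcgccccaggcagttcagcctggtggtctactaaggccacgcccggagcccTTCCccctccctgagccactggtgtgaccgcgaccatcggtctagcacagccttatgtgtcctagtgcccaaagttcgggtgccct
The Erg window held 2 GGAA cores, 1 ATTGTT and 1 AGATAA, the last pair starting 161 and 144 bases before the start. In the Tal1 window the single CAGATG and the single GGAA core lay next to each other, starting 153 and 146 bases before the start, and the Gata2 window held 3 GGAA cores and none of the other motifs. The Ets2 window, 74.4% G and C, held 1 GGAA core alone. Over all 33469 upstream windows of that length, 93.2% held GGAA, 10.3% ATTGTT, 10.3% AGATAA and 14% CAGATG, so a GGAA core marks nearly any gene. A match describes these letters and does not show that a factor binds there.

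The comparison of knockout with wildtype asks whether lacking IL-33, a cytokine that endothelial nuclei store, goes with another level of these regulators. None of the 9 passed the test: 0 of 9 had a limma adjusted p under 0.05 and 0 of 9 an unadjusted p under 0.05, where 0.00868% and 1.97% of the 11515 genes tested did (1.16% with an unadjusted p under 0.05 and the knockout higher). The mean was higher in the knockout for 8 of 9 factors, by 0.27 to 0.80 on the log2 scale, and 54.1% of all genes tested had a mean difference above 0. The median difference of the 9 was 0.61, against 0.037 for all genes tested. For 7 of 9 the difference was at least 0.4, a size that 17.5% of all genes reached. That size was not part of the planned settings, so this count is a description only. The 95% intervals of all 9 factors included 0. With sex as a covariate, which leaves the differences as they are and narrows their errors, 2 of 9 had an interval above 0 and an unadjusted p under 0.05: Erg (0.13 to 1.47) and Ets1 (0.0038 to 1.32). The lowest adjusted p of the 9 was then 0.961 (limma).

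Of the ETS factors, Ets1 had the clearest separation between genotypes. It was 15.99, 16.15 and 16.34 in knockout 28, 27 and 52, against 15.28, 15.26 and 15.96 in wildtype 34, 45 and 37. All 3 knockout values lay above all 3 wildtype values, but by no more than 0.030 between knockout 28 and wildtype 37; 6.25% of all genes had groups that did not overlap, 3.36% with the knockout higher. The difference was 0.66 (1.58-fold; SE 0.34, 95% interval -0.097 to 1.42; limma adjusted p = 0.999, as for all 9 factors).

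Erg was 12.94, 12.95 and 14.20 in knockout 28, 27 and 52, against 12.19, 11.84 and 13.67 in wildtype 34, 45 and 37. The groups overlapped because the wildtype male exceeded both knockout females. Its mean difference of 0.80 (1.74-fold; SE 0.54, interval -0.42 to 2.01) was the largest of the 9. Fli1, a close relative of Erg, was nearest to it in pattern within the 9 but not among all genes. It was 13.78, 14.10 and 14.67 in knockout 28, 27 and 52, against 13.16, 12.75 and 14.81 in wildtype 34, 45 and 37. Wildtype 37 here was the highest of all arrays, and the difference was 0.61 (1.53-fold; SE 0.53, interval -0.58 to 1.80).

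Ets2 was the exception among the 9, with a mean difference of -0.037 (SE 0.53, interval -1.22 to 1.15). Its knockout values were close together, at 12.91, 13.23 and 12.89 in animals 28, 27 and 52. The wildtype values spanned them, at 12.62 and 12.16 in the females 34 and 45 and 14.36 in the male 37. A difference of about 1 in either direction thus lay within the interval, and larger ones could also miss the adjusted threshold. On the RefSeq assembly Ets2 and Erg are neighbours on chromosome 11, and Ets1 and Fli1 on chromosome 8, with 0 protein-coding genes between the members of each pair. The neighbours Ets1 and Fli1 had mean differences of 0.66 and 0.61, and Erg and Ets2 of 0.80 and -0.037; differences between genes were not tested.

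Of the SOXF factors, Sox7 was nearly constant in the knockout, at 11.03, 11.00 and 11.20 in animals 28, 27 and 52, and spread in the wildtype, at 9.83, 10.31 and 11.59 in animals 34, 45 and 37, giving a difference of 0.50 (SE 0.45, interval -0.51 to 1.52). Sox17, the arterial factor, was 12.99, 11.31 and 11.82 in the knockout, against 10.90, 11.03 and 12.03 in the wildtype, in the same order of animals. Its highest value was in knockout 28, and its difference was 0.72 (1.65-fold; SE 0.49, interval -0.39 to 1.83). Without that array it was 0.245. Sox18, too, was highest there. It was 12.03 in knockout 28 but 9.80 and 10.40 in the other 2 knockout animals, against 10.85, 10.20 and 10.37 in wildtype 34, 45 and 37, and its difference was 0.27 with all arrays (SE 0.54) and -0.37 without knockout 28.

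Tal1 was 9.11, 8.15 and 8.21 in knockout 28, 27 and 52, against 7.33, 8.25 and 8.44 in wildtype 34, 45 and 37. The groups overlapped, with wildtype 34 alone below the rest, and the difference was 0.48 (SE 0.42, interval -0.46 to 1.43). Gata2 was 9.17, 8.07 and 8.55 in the knockout against 7.10, 7.61 and 8.74 in the wildtype. Both females of the wildtype lay below every knockout array and the male above 2 of them. Its difference was 0.78 (1.72-fold; SE 0.48, interval -0.29 to 1.85), next to that of Erg in size. Without knockout 28 the differences of Tal1 and Gata2 were 0.17 and 0.49, and without wildtype 34 they were 0.15 and 0.42. Knockout 28 also had the most alpha-globin RNA, with Hba-a1 at 18.29 against 11.22 to 15.76 on the other arrays, and the part of blood cells in the Tal1 and Gata2 values was not tested. Mast cells also carry GATA2. The median of 9 of 10 mast cell markers was 3.21 to 3.55 in the knockout and 3.71 to 3.76 in the wildtype. Kit was at 5.03 to 6.12, Tpsb2 at 3.05 to 5.34 and Cpa3 at 3.31 to 5.24. The part of mast cells in the Gata2 values was not tested.

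**Figure D3:**
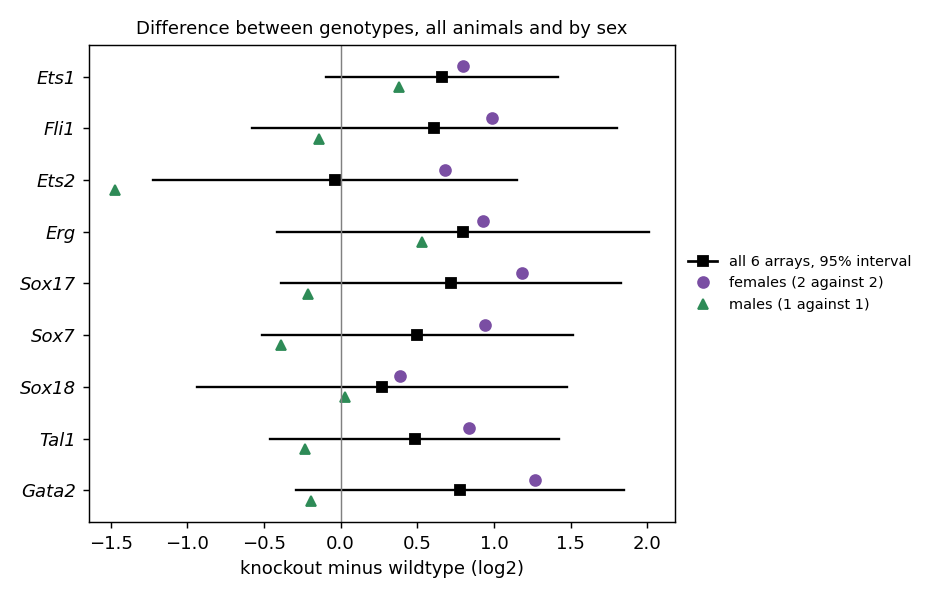
Knockout minus wildtype on the log2 scale (x axis) for each factor (y axis, ordered by level): squares and lines are the limma estimate and 95% interval over all 6 arrays, purple circles the difference of the female means (2 against 2), and green triangles the difference of the 2 males. All 9 intervals include 0, all 9 female differences are above 0 (0.39 to 1.27), and 6 of 9 male differences are below 0.

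The sexes were then taken separately. Among the 4 females the knockout mean was higher for 9 of 9 factors (53.9% of all genes tested), and for 7 of 9 both knockout females lay above both wildtype females (19.4% of all genes tested). These were Erg, Fli1, Ets1, Ets2, Sox7, Sox17 and Gata2, with female differences of 0.68 for Ets2 to 1.27 for Gata2. In the male pair, where each genotype is 1 animal and no error can be given, the knockout was higher for 3 of 9 factors (50.9% of all genes): Erg by 0.53, Ets1 by 0.38 and Sox18 by 0.030. It was lower for the other 6, by values of -0.14 for Fli1 to -1.47 for Ets2. In a test of the contrast between the sexes, the interaction of genotype and sex had 0 of 9 factors with a limma adjusted p under 0.05, as for 0% of all genes. At an unadjusted p under 0.05 there was 1 of 9, where 1.03% of genes had one. That factor was Ets2, with an interaction of -2.15 (SE 0.73; limma adjusted p = 0.999). With 1 male of each genotype, the errors of this test come from the spread of the females and of other genes and assume that males vary alike. All 9 interaction estimates were below 0, as were those of 53.6% of all genes.

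The number of factors with an unadjusted p under 0.05 moved with the fit, from 0 with all arrays and no covariate to 2 with sex as a covariate, 1 with array weights (Ets1) and 2 in females only (Fli1 and Gata2). It was highest without wildtype 37. Without that array 5 of 9 factors had an unadjusted p under 0.05, namely Erg (difference 1.35), Fli1 (1.23), Ets1 (0.89), Sox7 (1.01) and Gata2 (1.24), and the median difference of the 9 was 1.01 against 0.10 for all genes; the lowest adjusted p was 0.503 (limma). Without wildtype 45 the Fli1 difference was 0.20 and that of Erg 0.43, and without wildtype 34 that of Sox7 was 0.13. Leaving out knockout 52 gave 0.38 for Erg and 0.37 for Fli1.

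The low wildtype females were also the arrays with much keratinocyte RNA and strong added controls. Wildtype 34 and 45, with keratinocyte medians of 15.18 and 11.83 and added controls at 10.42 and 10.12, had the 2 lowest values of Erg, Fli1, Ets1, Ets2, Sox7, Sox17 and Gata2. Knockout 28 had a keratinocyte median of 11.61 and added controls at 10.26 and had higher values than both for these 7 factors, though it was the lowest knockout for Fli1, Erg and Ets1. The part of keratinocyte RNA and of added control signal in the differences was not tested. With 6 arrays, the fits that follow describe how the differences move and cannot separate these parts from genotype. With the keratinocyte median as a covariate the differences were 0.33 for Erg, 0.11 for Fli1, 0.45 for Ets1, 0.048 for Sox7 0.49 for Gata2, 0.34 for Tal1, 0.63 for Sox17, 0.66 for Sox18 and -0.49 for Ets2. With high or low added control signal as a block they were 0.42 for Erg, 0.20 for Fli1, 0.50 for Ets1, 0.24 for Sox7, 0.69 for Gata2, 0.53 for Tal1, 0.78 for Sox17, 0.62 for Sox18 and -0.39 for Ets2. Under both fits the differences of Erg, Fli1, Ets1, Sox7 and Gata2 were smaller than without them, that of Sox18 was larger and that of Ets2 was further below 0. Within the arrays of high signal (knockout 28 against wildtype 34 and 45) all 9 differences were above 0, from 0.52 for Ets2 to 2.03 for Sox17. Within those of low signal (knockout 27 and 52 against wildtype 37) only Ets1 was above 0, at 0.29, and the others were -0.095 for Erg to -1.30 for Ets2. In each set a genotype is a single animal, knockout 28 or the male wildtype 37, so no error can be given. The arrays of high signal were all from females. The median over all genes moved from 0.037 to -0.030 with the covariate and to -0.023 with the block.

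**Figure D4:**
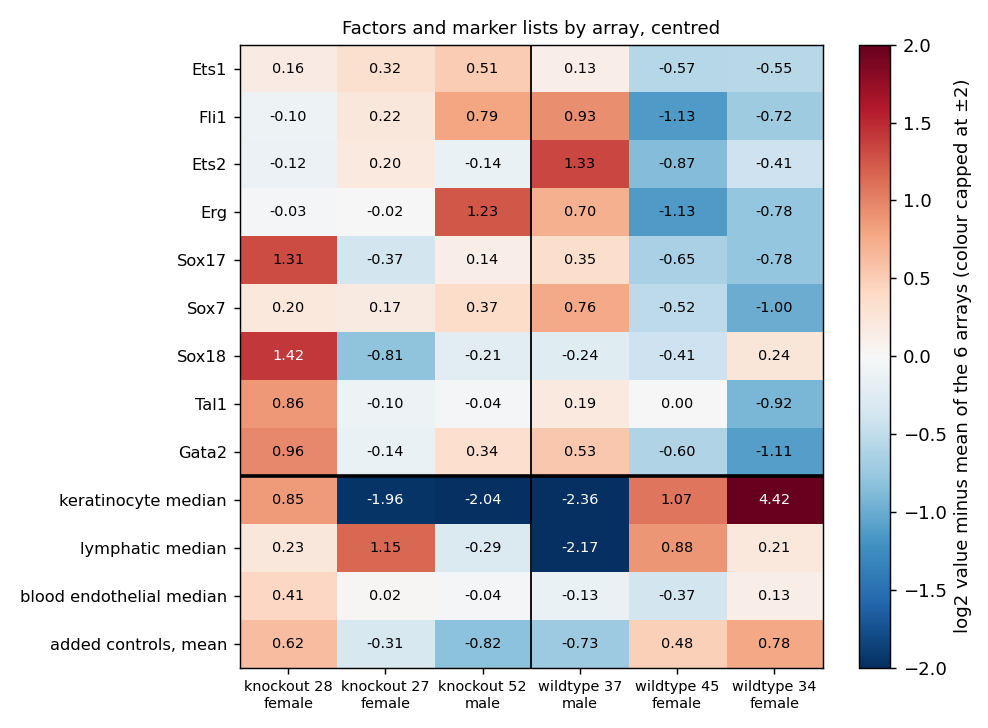
Log2 values of the 9 factors (upper block) and 4 measures of the arrays (lower block: medians of keratinocyte, lymphatic and blood endothelial markers, and the mean of the added controls), each minus its mean over the 6 arrays, for each animal (x axis); red is above and blue below the mean, with the colour capped at 2 in either direction. Wildtype 45 and 34 are blue for 7 of the 9 factors in both columns and red for the keratinocyte median, and knockout 28 is red for Sox17, Sox18, Tal1 and Gata2.

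Compared between the sexes, with genotype in the model, 8 of 9 factors had a higher mean in the 2 males than in the 4 females, as did 61.7% of all genes. Without wildtype 37, which leaves 1 male, 4 of 9 did (60.5% of all genes), namely Erg, Fli1, Ets1 and Sox7. None of the 9 passed (limma adjusted p), where 0.0261% of genes did. An unadjusted p under 0.05 was found for 2 of 9, Erg and Fli1, against 18.7% of all genes. Erg was 13.94 in males and 12.48 in females on average, a difference of 1.46 (SE 0.31, interval 0.75 to 2.16; limma adjusted p = 0.115), and Fli1 was 14.74 and 13.45, a difference of 1.29 (SE 0.37, interval 0.47 to 2.12; limma adjusted p = 0.146). For these and for Sox7 (11.40 and 10.54) both males lay above all 4 females, which held for 23.5% of all genes (31.7% with either sex higher). The Erg adjusted p was 0.0762 to 0.877 on leaving out single arrays, the highest without wildtype 37, and without that array the Fli1 difference was 0.73. Sox18, at 10.39 and 10.72, was the factor with a lower mean in males. The lymphatic gene Ccl21, a chemokine, passed that test with a male minus female difference of -4.49, and 6 of 6 keratinocyte markers were lower in the males on average, so that markers of other cells moved with sex on these arrays. Both males also had low added control signal (8.82 in knockout 52 and 8.91 in wildtype 37). Of the females, knockout 27 had 9.33, and 28, 45 and 34 had 10.26, 10.12 and 10.42. Sex thus nearly coincided with this signal on these arrays. The part of the markers and of this signal in the Erg and Fli1 values was not tested.

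Other genes of these families and networks were examined as lists, without a set test. In the counts that follow, a mean above 0 is a knockout minus wildtype difference above 0, which 54.1% of all genes tested had. Of 22 further ETS factors 20 were in the table and 14 were tested; 0 passed, 11 had a mean above 0, and the median difference was 0.26. The highest was Elf1, a broadly expressed ETS factor, at 14.83 to 16.72, a probeset signal in the range of Ets1, with a difference of 0.61. Elk3, a MAP kinase-responsive ETS factor, and the repressor Erf had differences of 0.40 and 0.15. Spi1, the myeloid ETS factor, was at 3.25 to 4.24, below the highest background probeset on every array. Of 16 other SOX factors 10 were in the table and 7 tested, with 0 called, 6 above 0 and a median of 0.27; Sox13, Sox4 and Sox12, the highest, had means of 7.12, 6.58 and 5.87, all below the lowest mean of the 9 factors, 8.21 for Gata2.

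The next list held partners of TAL1 and GATA2 together with relatives of the 2 factors. Of its 18 genes 17 were in the table and 14 tested, and 0 passed. Of those tested, 4 had a mean above 0 and 10 below, and the median difference was -0.16. The relatives Gata3, Tal2, Gata6 and Lyl1 were among those below 0 (-1.27, -0.47, -0.18 and -0.09). Tal2 (2.84 to 4.55), Gata6 (3.35 to 4.82) and Lyl1 (3.72 to 4.51) lay below the highest background probeset on every array. Their differences thus come from signal at background, and they count among the 10 below 0. Tal1 and Gata2 themselves were higher on average in the knockout, a contrast that was not tested. Tcf4, a helix-loop-helix partner, had the highest signal (13.46 to 14.86) and a difference of 0.53, while Tcf12 and Ldb1 had differences of -0.14 and -0.34. Lmo2, the bridge of the complex, was even across arrays at 10.49 to 11.10, with a difference of -0.080. Gata3, which skin epithelium expresses, was 12.25 in wildtype 34 and 6.48 to 9.23 elsewhere.

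Other transcription factors of endothelium were higher on average in 15 of 17 tested cases (54.1% of all genes tested), with 0 called and a median difference of 0.41. Epas1, the hypoxia-inducible factor of endothelium, was at 16.58 to 18.14, Nr2f2, the venous factor, at 13.69 to 15.62 and Foxo1 at 13.15 to 14.50, with differences of 0.48, 0.19 and 0.30.

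Genes known as targets of the 3 families, in lists drawn from general knowledge and not from binding in these cells, also gave 0 calls. For ETS targets 19 of 23 had a mean above 0, with a median of 0.38, and 1 of 23 (Apold1, named after its values were seen) had an unadjusted p under 0.05, as did 1.97% of all genes. Cdh5, Eng and Emcn, the highest of that list, had differences of 0.0067, 0.30 and -0.023, the first at the ceiling of the arrays. For SOXF targets 11 of 13 had a mean above 0, with a median of 0.29; Kdr, the main VEGF receptor, and Acvrl1, a BMP receptor of endothelium, had differences of 0.40 and 0.29. For TAL1 or GATA2 targets 9 of 14 had a mean above 0, with a median of 0.10. The lists overlap, Cdh5 and Kdr being in all 3 of them.

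**Figure D5:**
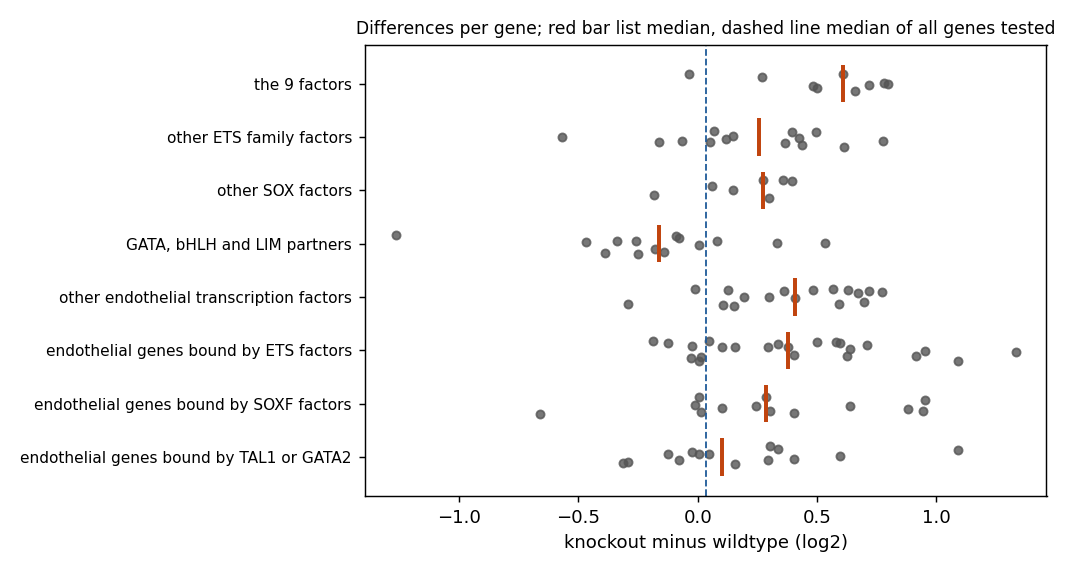
Knockout minus wildtype on the log2 scale (x axis) for each gene tested (points) of the 9 factors and of 7 related lists (y axis; vertical scatter within a row has no meaning); red bars are list medians and the dashed line is the median of all genes tested (0.037). The median of the 9 factors is 0.61 and the list medians lie between -0.16 and 0.41. The list of partners and relatives of TAL1 and GATA2 has its median below 0.

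Markers of other cells were described in the same way, again with 0 calls between genotypes in each list. The median difference was 0.30 over 13 blood endothelial markers, 0.68 over 6 lymphatic (led by Ccl21, Pdpn and Reln) and 0.46 over 12 pericyte and smooth muscle markers (led by Rgs5, Pdgfrb and Des). It was -0.69 over 9 fibroblast markers (led by Col3a1, Dcn and Fbn1) and -1.69 over 6 keratinocyte markers (led by Krt1, Krt15 and Perp). Over 8 leukocyte markers (led by Lcp1, Cd68 and Cd74) it was -0.37, and over 4 mast cell markers -0.15. Over 7 erythroid and platelet markers (led by Hba-a1, Hbb and Hba-a3) it was 1.19, the value of Alas2 at a signal of 3.21 to 5.46. The globin genes had differences of 1.68 to 2.08. The platelet genes Ppbp, Pf4 and Gp9 had differences of 0.06, 0.037 and 0.14. They lay below the highest background probeset on every array. Rgs5, the pericyte gene of highest signal, was 16.49 in wildtype 45, the array with the lowest Erg and Fli1, and 18.19 to 18.68 elsewhere. The leukocyte median was 4.02 to 4.41 in the knockout and 3.99 to 5.17 in the wildtype.

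The likeness of patterns was measured over the 6 arrays as the root mean square difference of values centred on each gene's mean, on the log2 scale. Within the set, Erg and Fli1 were each other's nearest (0.23), as were Sox17 and Gata2 (0.245). Erg was the 83rd nearest of all genes to Fli1 and Fli1 the 31st nearest to Erg, while Gata2 was the 5th nearest to Sox17. Sox7 and Ets1 were each other's nearest within the set (0.33) but not among all genes, where Sox7 was the 1175th nearest to Ets1 and Ets1 the 449th nearest to Sox7. Sox18 stood most apart, with Sox17 at 0.54. Outside the set the genes most like Erg were Parvb (0.11), Rap1gds1 (0.16) and Rrn3 (0.18), and those most like Fli1 were Isyna1 (0.063), Fgr (0.10) and Efhd1 (0.11). Hspa9 (0.063), Csnk1a1 and Garre1 were nearest to Ets1, Ntmt1 (0.18), Slc22a18 and Purb to Ets2, and Rnf144b (0.073), Zfp503 and Mfn2 to Sox7. Plpp3 (0.17), Phospho1 and Chd6 were nearest to Sox17, Arc (0.098), Or6c3 and Acyp1 to Sox18, Kbtbd8 (0.11), Ankrd42 and Sarm1 to Tal1, and Spata2 (0.14), Tbx3 and Zbbx to Gata2. With 6 arrays and 11515 genes, close matches of this kind arise among many genes.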

How the data were processed

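Each sample is 1 biotin-labelled RNA on 1 Affymetrix array, per the labels. The deposited log2 values came from RMA (Expression Console), according to the submitters' processing notes; versions, probeset library and build: not given in the sources used here. That they are log2 rests on RMA and on their range. They were used as deposited.

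The table holds 24834 probesets, 1646 of them controls. Probesets were named by the platform annotation; of several per symbol (10 symbols) the one with the highest mean was kept. Genes under the 25th percentile of all probesets by mean (3.52) were left out, which leaves 11515 of 15037; all 9 factors passed. Genotype was tested on all 6 arrays with limma 3.58.1 (R 4.3.3; lmFit, eBayes), sex with genotype in the model, and the interaction with both; p-values are two-sided and adjusted over all genes tested (Benjamini-Hochberg, threshold 0.05). An exact permutation test of 3 against 3 cannot reach that threshold. The number of arrays limits precision (median SE 0.387). The fits were tested on simulated data.

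From each list the members called are named, otherwise the 3 of highest mean; likeness of pattern was computed for factors with a range of at least 1, naming 3 genes each. Members and lists were chosen with earlier results of these data known. Alternatives were other filters, normalizations, covariates, weights, and leaving out each array.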

Additional observations from a re-analysis of the deposited data

How the results depend on the processing

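None of the 9 factors was called between genotypes under any of the 17 alternatives, and 8 or 9 of them had a higher mean in the knockout under each, a count added after seeing the data. Under these alternatives, 7 factors kept their direction. The difference of Ets2 reversed to 0.68 in females only and 0.20 with array weights, and ranged from -0.48 to 0.62 on leaving out single arrays. That of Sox18 reversed to -0.073 with array weights and ranged from -0.37 to 0.74 on leaving out single arrays. The 1 gene called between genotypes, Il33, was lost (0 genes) with no filter, with the filter at the 50th percentile and in females only, and the count was 0 to 1 without single arrays (1 without wildtype 34, 0 without each of the others). The genes called between sexes numbered 2 to 66 without single arrays, the highest without knockout 27; none of the 9 was among them. In the order by level, 7 to 9 factors kept their place without single arrays, 3 within knockout 28, 5 within knockout 52 and 7 within wildtype 34 and within wildtype 37. The causes were not tested. No paired analysis was made, because the sources used here give no pairing of knockout with wildtype animals. With 3 arrays a group, the upper ends of the 95% intervals lay at 1.15 to 2.01 on the log2 scale. These intervals are per gene and set no limit on what could be missed. After adjustment over all genes, larger differences could be missed as well. Il33, the 1 gene called, differed by -6.84 (limma adjusted p = 0.0439).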
